A study of Mus musculus with 3 samples.

Results

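As candidate choroid plexus epithelial cells, 61 cell barcodes were selected, and only 28 of them are called epithelial cells below. They came from 11267 barcodes in which 500 or more genes were detected and mitochondrial RNA made up no more than 10% of UMIs. The 61 were selected on measured values, with Ttr making up 2% or more of the UMIs and Enpp2 at least 1 UMI. The levels of these 2 genes are therefore given as a description. The study sorted CD45int CD11b+ cells, the gate used for microglia, from the brains of Apoe knockout mice and sequenced their 3′ transcript ends on the 10x Genomics platform, with each UMI standing for 1 captured RNA molecule. All animals carried the knockout, and all were taken at day 4. The sham group received the sham procedure and PBS, whereas both other groups underwent induction of NMOSD (neuromyelitis optica spectrum disorder, an inflammatory disease of the central nervous system) and received either a control peptide or the peptide APOE130-149. Each group was 1 library made from 4 pooled mice, so no comparison between groups had a replicate check, and every interval below covers counting error only.

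The choroid plexus is the vascular fold in each brain ventricle whose epithelium makes cerebrospinal fluid. Its cells are sealed by tight junctions, move sodium, chloride, bicarbonate and water into the ventricle, import folate and other nutrients from blood, and secrete transthyretin (Ttr), the carrier of thyroid hormone and retinol. Enpp2 encodes autotaxin, the secreted enzyme that makes lysophosphatidic acid. The epithelium also carries motile cilia, and it can respond to inflammation with acute phase and interferon-induced proteins. These cells belong to no leukocyte lineage, and a gate on CD45 and CD11b is not designed to collect them.

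The sham library held 1 selected barcode among 4231 (0.0236%, exact Clopper-Pearson 95% interval 0.000598% to 0.132%). The control peptide library held 52 among 5011 (1.04%, 0.776% to 1.36%), and the APOE130-149 library held 8 among 2025 (0.395%, 0.171% to 0.777%). The 2 NMOSD intervals overlap only between 0.776% and 0.777%, and the sham interval lies below both. These shares count every selected barcode. Only 1 in sham, 22 with control peptide and 5 with APOE130-149 are called epithelial cells below. The 22 of 5011 were 0.439% of control peptide cells, and the APOE130-149 library had 5 of 2025. The 2 NMOSD libraries thus lay closer together for this set than for all selected barcodes. Intervals were not computed for this narrower set, so those above do not compare the libraries for it. The sham cell had 2221 UMIs, and the summed UMIs were 375767 in the control peptide library and 82683 in the APOE130-149 library. A share of cells in a sorted suspension follows how many such cells passed the gate, so these shares describe the sorted samples and not the size of the choroid plexus. The 3 libraries held 32712199, 61469677 and 32060750 UMIs in sham, control peptide and APOE130-149. Their median depth per kept cell was 7124, 7848 and 9991 UMIs. Libraries shared 9 barcodes between sham and control peptide and 3 between the NMOSD libraries, and no selected cell carried a shared barcode. The deleted part of Apoe is not described in the labels, and Apoe UMIs occurred in all libraries, so a 3′ count of this gene does not check the genotype.

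The selected barcodes did not all match the label. In 28 of them (1 sham, 22 control peptide, 5 APOE130-149) the 12 microglia markers took at most 0.199% of UMIs. In the other 33 (30 control peptide, 3 APOE130-149) they took 0.596% to 3.38%, against a median of 3.21% and 3.37% in the control peptide and APOE130-149 cells with at least 3 P2ry12 UMIs and 1 Tmem119 UMI, here called P2ry12+ Tmem119+ cells. No barcode lay between these ranges, and the line drawn at 0.5% was chosen after the values were seen. The first 28 are called the epithelial cells below, and the other 33 are called mixed barcodes, which names their RNA content and not a cell type. Of the mixed barcodes, 28 of 30 in the control peptide library were small, with 780 to 3661 UMIs (median 1014). The remaining 2 had 20824 and 98846 UMIs and supplied 77.9% of the UMIs of that kind. In the APOE130-149 library the 3 mixed barcodes had 831, 861 and 30594 UMIs, and the last supplied 94.8%.

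**Figure D1:**
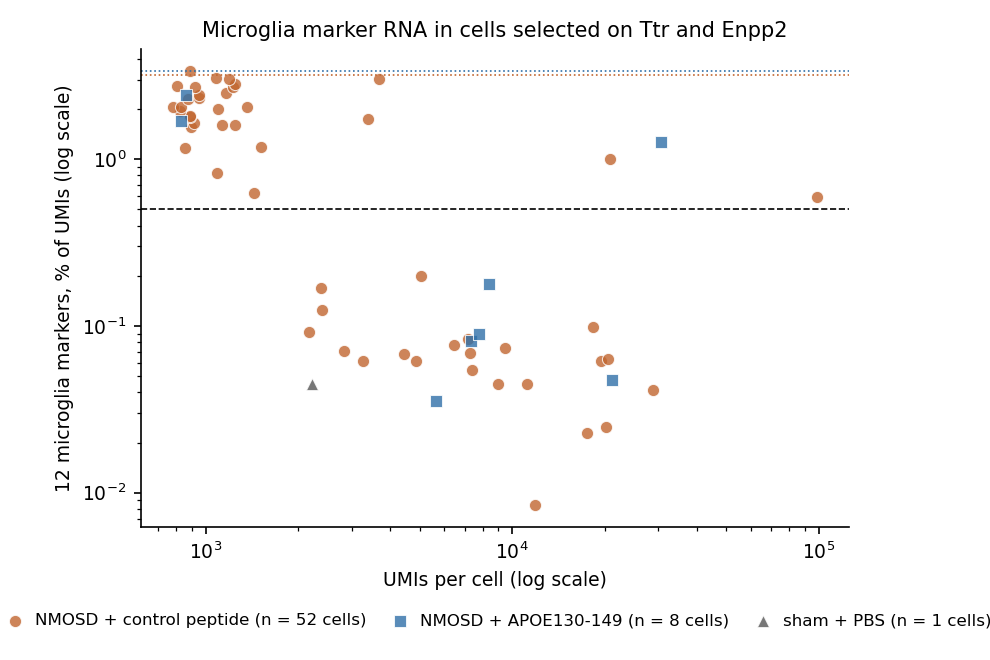
UMIs per cell (x, log scale) against the share of UMIs from 12 microglia markers (y, log scale) for the 61 selected barcodes. Each point is 1 barcode. The dashed line is 0.5% and the dotted lines are the medians of P2ry12+ Tmem119+ cells in the NMOSD libraries. The 28 epithelial cells lie at or below 0.199%. Most of the 33 mixed barcodes lie at the upper left with few UMIs. Their microglia marker shares are mostly below the dotted lines, with medians of 2.03% (control peptide) and 1.68% (APOE130-149).

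The epithelial cells ranged widely in depth. Those of the control peptide library had 2175 to 28877 UMIs (median 7321.5) and 867 to 4329 genes (median 2260). Those of the APOE130-149 library had 5637 to 21222 UMIs (median 7784) and 1764 to 3572 genes (median 2345). Ttr alone took 7.90% to 41.2% of UMIs per cell (median 26.4%) in the control peptide library, 18.9% to 33.8% (median 22.3%) in the APOE130-149 library and 26.3% in the sham cell. Just inside and just outside the 2% limit, the lowest selected Ttr shares were 2.13% and 4.45% in the control peptide and APOE130-149 libraries. The highest shares below the limit in barcodes with an Enpp2 UMI were 1.64% and 0.915%. In the control peptide library 4 cells passed the Ttr limit without an Enpp2 UMI, and 7 selected barcodes had a single one.

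All 20 choroid plexus epithelial markers were detected in the epithelial cells of both NMOSD libraries, where they summed to 28.9% and 29.9% of UMIs. The same markers summed to 0.0103% and 0.00796% in P2ry12+ Tmem119+ cells. The sham cell held 8 of the markers, with 585 UMIs of Ttr and 22 of Enpp2. Its 4 UMIs of Kl and 5 each of Igfbp2 and Ecrg4 belong to the same marker group, and the other 12 markers were at 0 in 2221 UMIs, which allows each up to 1351 CPM (UMIs of a gene per 1000000 UMIs). Of the 10 ependymal markers, which would mark the ciliated lining of the ventricles, Ccdc153, Tmem212, Rarres2, Fam183b and Sntn were at 0 in both NMOSD libraries. The ependymal list summed to 0.0405% and 0.0714% of UMIs, mostly from Mia and Dynlrb2.

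RNA of the 2 proteins used for sorting was low in the epithelial cells. Ptprc, which encodes CD45, had 3 UMIs in 3 of 22 control peptide cells and 1 UMI in 1 of 5 APOE130-149 cells, or 13.5 and 19.8 CPM against 430 and 412 CPM in P2ry12+ Tmem119+ cells. Itgam, which encodes CD11b, was at 36.0 and 39.7 CPM against 900 and 928 CPM. Malat1, a nuclear long noncoding RNA, was at 153 CPM (34 UMIs) and 238 CPM (12 UMIs) in the epithelial cells. Its level in P2ry12+ Tmem119+ cells was 20904 and 19703 CPM. The 3 mixed barcodes above 10000 UMIs had 144, 283 and 219 Malat1 UMIs, or 0.692%, 0.286% and 0.716% of their UMIs. No epithelial cell was above 0.125%, and the medians in P2ry12+ Tmem119+ cells were 2.19% and 2.03%. Whether the epithelial barcodes held intact cells was not tested.

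Several secreted proteins were abundant besides Ttr. Enpp2 was at 14028 CPM (95% Poisson interval 13540 to 14530) in the 22 control peptide epithelial cells and at 15874 CPM (14793 to 17013) in the 5 APOE130-149 cells. Ecrg4 (chr1:43730602-43742578, GRCm38, plus strand), a secreted peptide precursor abundant in this epithelium, was at 2653 and 2818 CPM and had UMIs in every one of the 28 cells. Igfbp2, which binds insulin-like growth factors, was at 2121 and 1627 CPM, and its partner Igf2 at 378 and 218 CPM. Clu (clusterin, a lipoprotein-associated chaperone) was at 1995 and 2679 CPM, Ptgds (prostaglandin D synthase) at 1702 and 2004 CPM, and Sostdc1 (an antagonist of BMP and WNT ligands) at 995 and 655 CPM. Cst3, the protease inhibitor cystatin C, was also high at 3328 and 2897 CPM, but P2ry12+ Tmem119+ cells carried more of it, at 38405 and 37499 CPM. Igfbp2 was 6997-fold above the P2ry12+ Tmem119+ cells in the library where both kinds of cell differed less.

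Ion and water transport genes were measured in the same cells. Kcnj13, an apical potassium channel, was at 820 and 873 CPM and had UMIs in all 27 NMOSD epithelial cells. Fxyd1, a regulator of the sodium pump, was at 1202 and 1270 CPM, and the pump's beta subunit Atp1b1 was at 946 and 635 CPM. Car2 (cytosolic carbonic anhydrase) was at 793 and 714 CPM and the membrane form Car12 at 239 and 179 CPM. Clic6, a chloride channel family member, was at 383 and 575 CPM. The bicarbonate transporters Slc4a5 and Slc4a10 were at 90.1 and 139 CPM and at 171 and 238 CPM. Aqp1, the apical water channel, was at 94.6 and 139 CPM (21 and 7 UMIs), in 8 of 22 and 3 of 5 cells. Among the genes of this group named here, the interval of the ratio held 1 except for Atp1b1 (0.671, 0.448 to 0.977).

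Nutrient and hormone carriers, receptors and regulators were also detected. Folr1, the folate receptor, was at 1288 and 1052 CPM, with UMIs in 21 of 22 and 5 of 5 cells. The thyroid hormone transporter Slco1c1 was at 365 and 298 CPM. Kl, which encodes Klotho, was at 757 and 853 CPM and Prlr, the prolactin receptor, at 770 and 972 CPM. Htr2c, a serotonin receptor with long-known expression in this tissue, was at 94.6 and 139 CPM. Among transcription factors Otx2 (chr14:48657677-48673819, GRCm38, minus strand), which is needed to form and maintain the choroid plexus, was at 203 and 238 CPM. Msx1 was at 248 and 456 CPM and Sox9 at 167 and 179 CPM. Epithelial structure was represented by Krt18 (495 and 298 CPM), Calml4 (639 and 774 CPM), the collagen Col8a1 (108 and 79.4 CPM), the membrane protein Tmem72 (162 and 159 CPM) and the pore-forming tight junction protein Cldn2 (63.0 and 139 CPM, from 14 and 7 UMIs). Genes of motile cilia were detected as well, among them Rsph1 at 225 and 198 CPM and Pifo at 131 and 218 CPM.

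**Figure D2:**
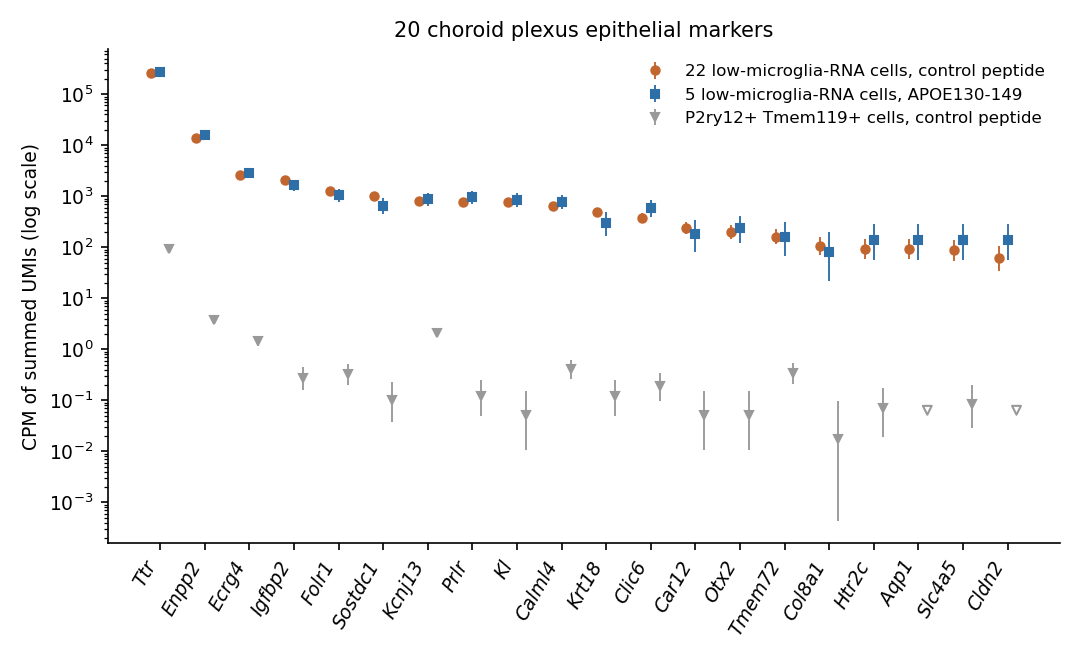
Level of 20 choroid plexus epithelial markers (y, CPM of UMIs summed over cells, log scale) in the epithelial cells of the NMOSD libraries and in P2ry12+ Tmem119+ cells of the control peptide library. Bars are exact Poisson 95% intervals, and open triangles mark the upper limit of markers with 0 UMIs. Ttr and Enpp2 chose the cells. The other 18 markers are also above the P2ry12+ Tmem119+ level, and the order from Ecrg4 down is similar in both libraries.

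The 25 most abundant genes in the epithelial cells, with mitochondrial and ribosomal protein genes set aside, included Cox8a at 3878 and 4544 CPM, Cox4i1 at 3008 and 3095 CPM, Cox6c at 2738 and 2480 CPM, and Ndufa4 at 2400 and 2441 CPM, all subunits of respiratory complexes. Chchd10, a mitochondrial intermembrane protein, was at 3319 and 2659 CPM. Fth1, the ferritin heavy chain, was at 4738 and 4306 CPM. Bsg (basigin, the partner of lactate transporters) was at 4697 and 3214 CPM. Mitochondrially encoded RNA took 2.13% to 8.30% of UMIs (median 5.87%) in the control peptide epithelial cells and 3.39% to 9.22% (median 4.00%) in the APOE130-149 ones.

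The mixed barcodes carried the same epithelial markers beside microglia RNA. Their 20 choroid plexus markers summed to 18.5% and 18.1% of UMIs, and their 12 microglia markers to 0.989% and 1.30%, sums carried by the few large barcodes. The medians per barcode were 6.48% and 9.06% for the choroid plexus markers and 2.03% and 1.68% for the microglia markers. The mitochondrial share had a median of 0.735% in the control peptide library, where the 2 large barcodes had 3.02% and 3.79%. It was 1.05%, 1.44% and 8.18% in the APOE130-149 library, the last in the 30594-UMI barcode, against medians of 2.31% and 2.04% in P2ry12+ Tmem119+ cells. Neutrophil RNA (S100a8, S100a9 and 7 further markers) reached 5.84% of UMIs in 1 of these small barcodes and summed to 0.254% over the control peptide ones and 0.0279% over the APOE130-149 ones. In the epithelial cells it summed to 0.0113% and 0.0119%, and in P2ry12+ Tmem119+ cells to 0.595% and 0.506%. No doublet caller was run, and whether the mixed barcodes hold 2 cells, a cell with fragments of another, or free RNA was not tested.

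Ttr was also counted outside the selected cells. In P2ry12+ Tmem119+ cells at least 1 Ttr UMI was found in 53.7% of control peptide cells (52.2% to 55.2%), 51.9% of APOE130-149 cells (49.6% to 54.3%) and 0.744% of sham cells (0.487% to 1.09%), at median depths of 8137, 10582 and 7825 UMIs. The corresponding levels were 93.1, 69.3 and 0.861 CPM. There were 25.3 Ttr UMIs per Enpp2 UMI in these control peptide cells (22.1 to 29.2) and 16.0 in the APOE130-149 cells (13.4 to 19.3). The epithelial cells had 18.8 and 17.1. A single Ttr UMI therefore did not mark an epithelial cell in the NMOSD libraries. The selected cells held 67.8% of the Ttr UMIs of the control peptide library, 44.8% of the APOE130-149 library and 94.97% of the 616 Ttr UMIs of the sham library.

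The comparison of the NMOSD libraries asked how the cells of mice given APOE130-149 differed from those given the control peptide. Over all selected barcodes, 2430 genes had a mean of at least 50 CPM over the 2 NMOSD libraries. Of these, 525 (21.6%) were at least 1.5-fold higher in the APOE130-149 library and 355 (14.6%) at least 1.5-fold lower, with a median log2 ratio of 0.05. In the epithelial cells alone 2244 genes reached that level, of which 527 (23.5%) were at least 1.5-fold higher and 426 (19.0%) at least 1.5-fold lower, with a median log2 ratio of 0.09. Over all selected barcodes, 50 CPM stood for 18.8 UMIs in the control peptide library and 4.13 in the APOE130-149 library. In the epithelial cells it stood for 11.1 and 2.52 UMIs, so genes near that level rest on few UMIs. A library at 0 UMIs was set to 3 counts, which in the epithelial cells is 13.5 and 59.5 CPM. Single cells also weighed heavily. The largest barcode supplied 26.3% of control peptide UMIs and 37.0% of APOE130-149 UMIs, and within the epithelial cells the largest supplied 13.005% and 42.1%.

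Some of the genes highest with APOE130-149 over all barcodes rested on 1 barcode. Genes were named when their mean was at least 100 CPM, they had at least 50 UMIs and the interval of their ratio left out 1. Over all barcodes 132 genes met the rule (54 higher, 78 lower), and in the epithelial cells 72 did (33 higher, 39 lower). The 40 that met it in both with the same direction rest partly on the same UMIs. How many genes could have met the rule was not counted, so no share is given. Its intervals cover counting error only. Variance between the 22 control peptide epithelial cells was a median of 1.499 times that of counting, for 471 genes. The highest ratio over all barcodes was that of Kctd12 (an accessory subunit of GABA-B receptors), at 85.2 CPM with control peptide and 399 CPM with APOE130-149. It was 4.69 (2.79 to 7.87) for Kctd12. The 30594-UMI mixed barcode held 90.9% of its APOE130-149 UMIs. It also held 88.6% of those of Jun (ratio 2.67), 90.0% of Gpr34, a microglia receptor (2.34), 96.0% of Rgs2 (2.32) and 81.5% of Maf (2.32). Without the largest barcode of each library Kctd12, Jun, Gpr34 and Rgs2 were lower with APOE130-149, with log2 ratios of -0.53, -1.05, -1.33 and -2.34. Hnrnpa0, Arglu1, Mrps36, Nfia, Cetn3 and App were also among the 12 highest.

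Among the epithelial cells Nfia, Cetn3 and App kept an interval above 1. Nfia (chr4:97772734-98118874, GRCm38, plus strand), a transcription factor of glial and choroid plexus lineages, had 8 UMIs in 5 of 22 control peptide cells and 13 UMIs in 5 of 5 APOE130-149 cells, at 36.0 and 258 CPM, a ratio of 7.16 (2.75 to 19.9). Cetn3, a centriole protein, was at 76.6 and 278 CPM (3.63, 1.66 to 7.82). App, the amyloid precursor protein, was at 527 and 853 CPM (1.62, 1.11 to 2.32), and without the largest epithelial cell of each library its interval held 1 (1.42, 0.873 to 2.22). The ratios of Nfia and Cetn3 were then 8.51 and 5.60.

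Further genes higher with APOE130-149 in the epithelial cells had modest levels, and each of the 3 described here had UMIs in all 5 APOE130-149 cells. Ap1s2, an adaptor subunit of vesicle coats, was at 158 and 456 CPM (ratio 2.90, 1.63 to 5.04), and without the largest cell of each library the level was 754 CPM against 140 CPM. Mia, a small secreted protein, was at 212 and 536 CPM (2.53, 1.52 to 4.15). Its per-cell values ran from 355 to 660 CPM with APOE130-149 and from 0 to 1126 CPM with control peptide, so the groups overlapped. Hopx, a homeodomain-only cofactor, was at 320 and 655 CPM (2.05, 1.31 to 3.14).

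At the other end stood Cox8b and Ccnd2. Cox8b (chr7:140898945-140900446, GRCm38, minus strand), a subunit of cytochrome c oxidase, had 94 UMIs over all control peptide barcodes and 1 UMI over all APOE130-149 barcodes, at 250 and 12.1 CPM, a ratio of 0.0483 (0.00121 to 0.276). Of these, the epithelial cells had 89 UMIs in 13 of 22 cells and 1 UMI in 1 of 5. Among control peptide cells it ranged from 0 to 1861 CPM with a median of 104 CPM, and it was at 0 in the sham cell. Its paralogue Cox8a differed by less than 1.5-fold. Ccnd2, a D-type cyclin, had 77 and 1 UMIs over all barcodes (0.0590, 0.00148 to 0.339) and 43 and 1 in the epithelial cells. Without the largest epithelial cell of each library the ratios were 0.0883 (0.00221 to 0.507) for Cox8b and 0.174 (0.00430 to 1.03) for Ccnd2. The 2 large APOE130-149 barcodes outside the mitochondrial limit carried 3 and 6 Cox8b UMIs and 18 and 1 Ccnd2 UMIs. The 2 control peptide ones carried 1 and 1 Cox8b UMIs and 21 and 0 Ccnd2 UMIs. Cox8b was at 34.6 and 509 CPM with APOE130-149 there against 11.9 and 69.4 CPM, so it was not lower in these barcodes. With the limit lifted the log2 ratios were -1.87 for Cox8b and -0.90 for Ccnd2.

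Further genes were low with APOE130-149 over all barcodes. Their counts come from 375767 summed UMIs with control peptide and 82683 with APOE130-149, so a pair of counts is not a ratio. Zbtb20 (a transcriptional repressor) had 81 and 3 UMIs, Gas5 (a growth-arrest noncoding RNA) 185 and 14, Psmb4 (a proteasome subunit) 99 and 7, Ctsh (a lysosomal protease) 67 and 4, Grpel1 57 and 4, Bag1 69 and 5, Eif3k 89 and 7, and Psenen (a gamma-secretase subunit) 85 and 7. Gas5 and Psmb4 had ratios of 0.344 and 0.321 over all barcodes and 0.343 and 0.319 in the epithelial cells. Zbtb20 and Ctsh did not keep their direction, with log2 ratios of 0.33 and 0.0060 without a mitochondrial limit. Without barcodes above 2 times the median UMI total Zbtb20 was at 0.19. S100a8 and S100a9, calgranulins of neutrophils, had 128 and 2 UMIs and 181 and 10 UMIs over all barcodes. In the epithelial cells they had 7 and 1 UMIs and 7 and 5 UMIs, where the ratio of S100a9 was 3.15 (0.788 to 11.5). Of the 12 highest genes 9, and of the 12 lowest 11, were at least 1.5-fold apart in the same direction in the epithelial cells, which share their UMIs with the full set.

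**Figure D3:**
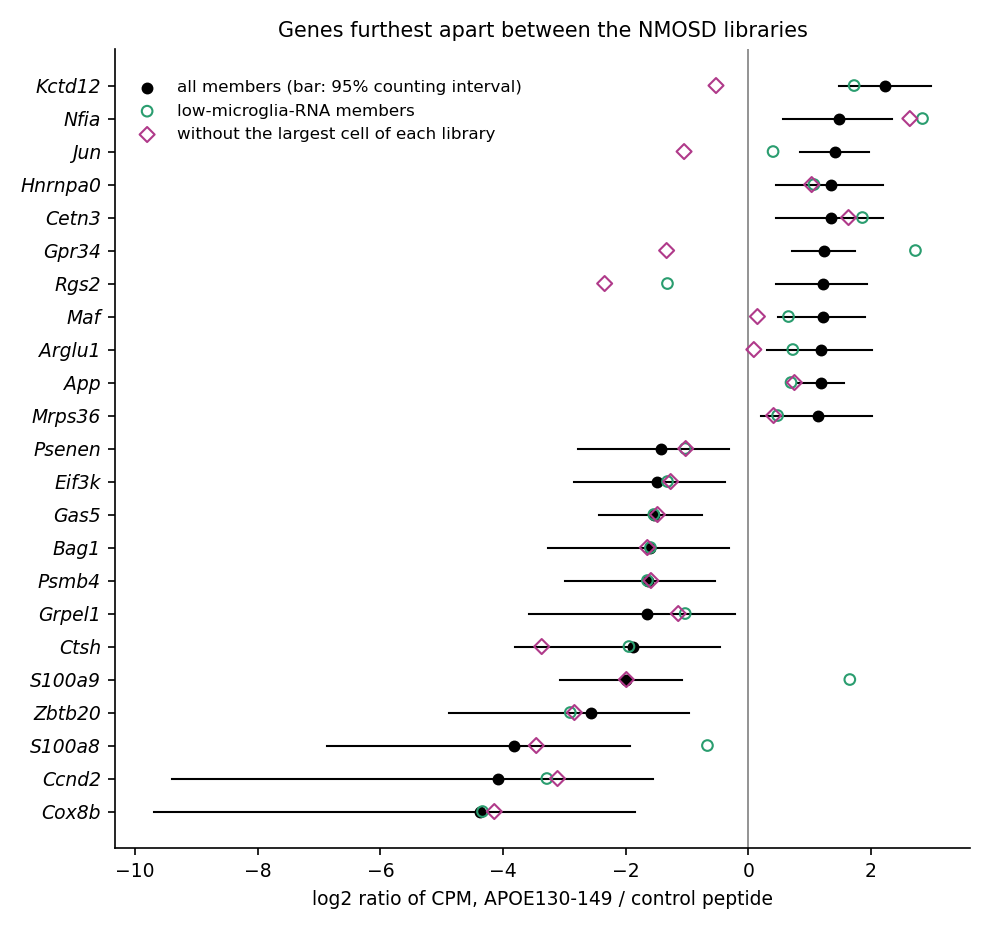
Log2 ratio of CPM, APOE130-149 over control peptide (x), for 11 of the 12 highest and the 12 lowest genes (y). Filled points are all selected barcodes with 95% counting intervals, open circles the epithelial cells, and diamonds the values without the largest barcode of each library, with a library at 0 UMIs set to 3 counts. The diamonds of Kctd12, Jun, Gpr34 and Rgs2 lie left of 0 while their filled points lie right of it.

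An acute phase gene was among the lowest in the epithelial cells. Lcn2 (chr2:32384633-32388252, GRCm38, minus strand), lipocalin 2, an acute phase protein that withholds bacterial iron carriers, had 550 UMIs in 11 of 22 control peptide cells and 14 UMIs in 2 of 5 APOE130-149 cells. Its levels were 2477 and 278 CPM, a ratio of 0.112 (0.0609 to 0.190). Cell by cell it ran from 0 to 14868 CPM with a median of 44.8 CPM in the control peptide library and from 0 to 1227 CPM with a median of 0 in the APOE130-149 library, and the sham cell had 5 UMIs (2251 CPM). The groups overlapped, and 32.7% of control peptide UMIs of Lcn2 came from 1 cell. In the mixed barcodes Lcn2 had 8 and 57 UMIs, with all 57 in the 30594-UMI barcode. Over all barcodes the ratio was 0.578 (0.445 to 0.741). Without the largest epithelial cell of each library the ratio was 0.108 (0.0493 to 0.207). The largest control peptide cell held 0 Lcn2 UMIs, so all 550 control peptide UMIs stayed in. This ratio therefore does not show how far the difference rests on the cell with 32.7% of them. P2ry12+ Tmem119+ cells had 191 and 158 CPM.

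Several interferon-induced genes were also at lower levels with APOE130-149 in the epithelial cells. Ifi27l2a, a small interferon-induced membrane protein, had 92 UMIs in 14 of 22 cells and 3 UMIs in 2 of 5 cells, at 414 and 59.5 CPM (ratio 0.144, 0.0291 to 0.433). The largest cell of the control peptide library gave 46.7% of the 92, and without the largest cell of each library the ratio was 0.135 (0.00335 to 0.789). Among all selected APOE130-149 barcodes, the 30594-UMI mixed barcode held 16 Ifi27l2a UMIs, 84.2% of that library's total. In the large barcodes outside the mitochondrial limit Ifi27l2a had 0 and 0 UMIs with control peptide and 2 and 0 with APOE130-149. Bst2 (tetherin) was at 500 and 238 CPM (0.476, 0.239 to 0.866) but had a ratio of 1.32, with an interval holding 1, over all selected barcodes. Without the largest epithelial cells its ratio was 0.242 (0.0489 to 0.733). Ifi27 was at 1869 and 1528 CPM and Ifitm3 at 703 and 536 CPM. Ifit1, Irf7 and Xaf1 had 17, 15 and 14 UMIs in the control peptide cells and 0 in the APOE130-149 cells, where a count of 0 allows up to 59.5 CPM. The intervals of their ratios ran from 0 to 1.07, 1.23 and 1.33, so each held 1. Of 6 interferon response genes at or above 50 CPM, none was at least 1.5-fold higher and 3 were at least 1.5-fold lower (median log2 ratio -0.73), against 23.5% and 19.0% of all genes in these cells and a median of 0.09. Over all selected barcodes 8 were measured and 1, Ifi27l2a, was lower, with a median of -0.05. In P2ry12+ Tmem119+ cells the ratios of Ifi27l2a and Bst2 were 0.899 and 0.923.

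**Figure D4:**
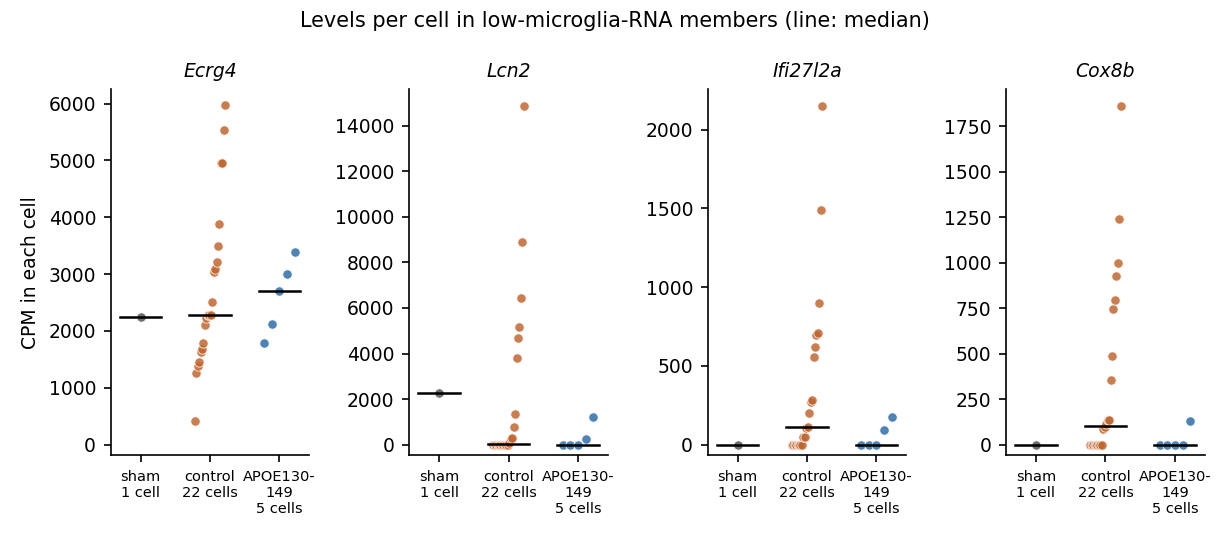
CPM in each epithelial cell (y) of Ecrg4, Lcn2, Ifi27l2a and Cox8b, by library (x). Points are cells, placed side by side in order of value, and the line is the median. Ecrg4 is present in every cell, whereas Lcn2, Ifi27l2a and Cox8b are at 0 in many cells and high in a few control peptide cells.

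Antigen presentation and cytokines gave few values. H2-D1, an MHC class I heavy chain, was at 239 and 79.4 CPM in the epithelial cells (0.333, 0.0874 to 0.903), with an interval holding 1 once the largest cells were left out (0.405, 0.0808 to 1.26). B2m was at 567 and 437 CPM and H2-K1 at 311 and 317 CPM. Of 4 MHC class I genes measured there 1 was at least 1.5-fold higher and 1 lower, and over all selected barcodes 1 and 1 of 5. The shares of all genes were 23.5% higher and 19.0% lower in the epithelial cells and 21.6% and 14.6% over all barcodes, for these and the cytokine genes alike. No MHC class II gene reached 50 CPM in the epithelial cells, where Cd74 had 3 and 2 UMIs. Cytokine, adhesion and acute phase genes gave 0 higher and 1 lower of 6 there, and 2 and 1 of 6 over all selected barcodes. Lbp, the lipopolysaccharide-binding protein, was at 477 and 476 CPM, and C3 (complement component 3) at 94.6 and 99.2 CPM. In the mixed barcodes C3 had 1 and 21 UMIs, and 80.8% of all APOE130-149 UMIs of C3 came from 1 barcode.

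Some of these genes also varied among the 22 control peptide epithelial cells. For 471 genes the variance between cells was a median of 1.499 times that of counting alone. After Ttr (189 times), Lcn2 had the largest value at 49.4 times, followed by Enpp2 (13.4), Trf (transferrin, 9.37), Bsg (8.76) and Ifi27l2a (7.27). Trf ran from 0 to 2833 CPM with a median of 297 CPM, and Cox8b had a value of 4.97. Ttr and Enpp2 also chose the cells. They had 58495 and 3115 UMIs here, more than the other genes named, and genes of unlike level are ranked together.

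The gene lists of choroid plexus function were compared between the NMOSD libraries. In the epithelial cells 13 secreted-protein genes were measured, with 0 at least 1.5-fold higher and 3 at least 1.5-fold lower (median log2 ratio -0.20), and 16 ion and water transport genes with 2 and 2 (-0.03). Nutrient carriers gave 2 and 4 of 12 (-0.29), receptors 0 and 1 of 6 (0.25), transcription factors 1 and 0 of 8 (0.26), junction and structure genes 2 and 1 of 10 (0.09) and cilia genes 2 and 0 of 9 (-0.08). Among these genes stood 1110017D15Rik, a cilia-associated gene, at 76.6 and 298 CPM (3.89, 1.81 to 8.28), Slc23a2, a vitamin C transporter, at 72.1 and 258 CPM (3.58, 1.58 to 7.94), and Kcne2, a potassium channel subunit, at 239 and 99.2 CPM (0.416, 0.130 to 1.03). These counts are to be read against the 23.5% and 19.0% of all measured genes in the same cells.

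Stress and metabolism lists are to be read against 21.6% of all measured genes higher and 14.6% lower over all barcodes, and 23.5% and 19.0% in the epithelial cells. Immediate early genes had 9 of 14 at least 1.5-fold higher and 2 lower over all barcodes (median log2 ratio 0.80), led by Fos with 11 and 17 UMIs, of which 1 barcode held 88.2% with APOE130-149. In the epithelial cells 5 of them were measured, with 1 higher and 0 lower, and Fos had 2 and 0 UMIs. In P2ry12+ Tmem119+ cells Fos and Jun had ratios of 1.80 and 1.43. Heat shock and chaperone genes gave 3 higher and 2 lower of 17 in both sets (medians 0.16 and 0.01). Mitochondrially encoded genes had 4 higher and 0 lower of 12 over all barcodes (0.54) and 0 and 0 of 12 in the epithelial cells (-0.02). Cytosolic ribosomal protein genes had 0 higher and 12 lower of 77 over all barcodes (-0.34) but 1 and 0 of 77 in the epithelial cells (0.07). Nuclear genes of oxidative phosphorylation had 1 and 10 of 83 (-0.15) and 5 and 12 of 83 (-0.07). Glycolysis genes had 2 and 1 of 13 (-0.18) and 1 and 2 of 13 (-0.03), and antioxidant and metal-handling genes 3 and 2 of 21 (-0.03) and 1 and 1 of 20 (-0.04).

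Lipoprotein genes are of interest in mice that lack Apoe, and their counts are read against the same shares of all genes (21.6% and 14.6%, and 23.5% and 19.0%). Over all barcodes 2 of 6 were at least 1.5-fold higher and 0 lower (median log2 ratio 0.39), and in the epithelial cells 0 and 2 of 6 (-0.20). Clu was at 1995 and 2679 CPM in the epithelial cells, a ratio of 1.34 (1.10 to 1.63). Apod had 23 UMIs and 1 UMI (0.192, 0.00465 to 1.18). Apoe itself had 32 and 7 UMIs in the epithelial cells, at 144 and 139 CPM, against 131 and 142 CPM in P2ry12+ Tmem119+ cells, and the sham cell had 2 UMIs. The 19 list medians over all barcodes each changed sign under at least 1 of 19 other settings.

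**Figure D5:**
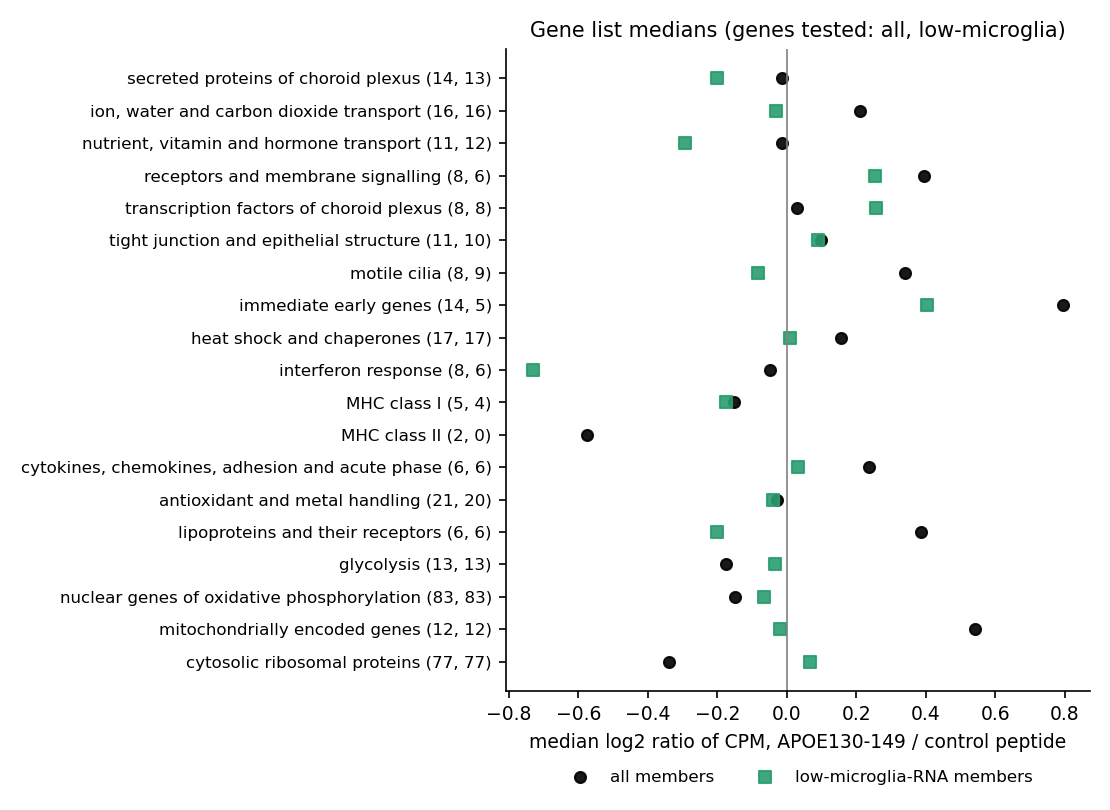
Median log2 ratio of CPM, APOE130-149 over control peptide (x), for 19 gene lists (y), over all selected barcodes and in the epithelial cells of the NMOSD libraries. Numbers beside each list are the genes measured at 50 CPM or more in each set. Immediate early, mitochondrially encoded and ribosomal protein genes lie nearer 0 in the epithelial cells, and interferon response genes lie further from it.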

How the data were processed

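UMI counts per gene and cell barcode were deposited by the authors as 1 matrix per library. The tools named are Cell Ranger 5.0.1 and Seurat 4.3.0, with mm10, per the submitters' processing notes, while the deposited matrices name cellranger 7.0.1, per the file headers. The treatment of introns and strand is not given in the sources used here. Barcodes under 500 genes or over 10% mitochondrial UMIs were left out, with no doublet caller and no correction for free RNA. UMI counts were summed per library over the selected barcodes and scaled to 1000000 UMIs (CPM). Levels carry exact Poisson, shares exact Clopper-Pearson and ratios exact conditional 95% intervals, computed with scipy 1.17.1. The ratio intervals alone were run on simulated Poisson counts. That simulation held no variation between cells and cannot check the intervals where cells vary. All intervals cover counting error only. With 1 library per group no test between groups was run. A gene counted as higher or lower at 1.5-fold or more among genes with a mean of at least 50 CPM over both NMOSD libraries. The genes named by comparison were the 12 highest and 12 lowest ratios with a mean of at least 100 CPM, at least 50 UMIs and an interval leaving out 1, without mitochondrial, ribosomal, haemoglobin or unnamed genes. The same rule was applied to the epithelial cells, and from it and from each gene list examples are printed. Values of some single genes are not reported here. Members, lists and markers were chosen with earlier results of these data known. Positions are from GENCODE M21 on GRCm38, the assembly of mm10, and 32235 of 32285 gene identifiers were found there. Alternatives covered the limits on genes, mitochondrial UMIs, Ttr and Enpp2, the scaling, the floor, the weighting of cells and the leaving out of cells.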

Additional observations from a re-analysis of the deposited data

Results flagged for a closer look

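Signal of the same kind was found outside the cell filter, in data that the report's comparisons do not use. In the control peptide library 19 barcodes met the Ttr and Enpp2 limits but not the filter, and they held 33581 Ttr UMIs. In the APOE130-149 library there were 10 such barcodes with 20620 Ttr UMIs, and in the sham library there were 0. Most were small, with 17 and 8 of them under 500 genes, but in each NMOSD library 2 were above 10% mitochondrial UMIs and held nearly all of this Ttr (32173 and 20393 UMIs). Those of the control peptide library had 84127 UMIs at 13.9% mitochondrial UMIs and 14417 at 10.2%, with microglia markers at 0.0571% and 0.0832% of UMIs. Those of the APOE130-149 library had 86710 UMIs at 16.3% and 11782 at 10.4%, with microglia markers at 0.736% and 0.0764%. The larger barcode in each library carried 4351 and 4567 CPM of Malat1, and the smaller ones 69.4 and 84.9 CPM. Lcn2 had 85 and 0 UMIs in the control peptide barcodes and 1 and 0 in the APOE130-149 barcodes. Ifi27l2a had 0 and 0 UMIs in the control peptide barcodes and 2 and 0 in the APOE130-149 barcodes, so it was not lower with APOE130-149 there. Cox8b had 1 and 1 UMIs against 3 and 6, and was not lower there either.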

How the results depend on the processing

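No paired analysis was possible because each group was 1 library. The share of selected cells in the control peptide library was 0.559% with Ttr at 10% or more, 0.470% with at least 1000 genes, 0.767% with at most 5% mitochondrial UMIs, 0.599% without barcodes at 50% or more of the microglia marker level, 0.659% without those above 2 times the median UMI total, and 0.439% with at most 0.5% microglia marker UMIs, a setting chosen after seeing the data. At 1000 genes the sham share was 0%. The APOE130-149 share stayed inside its main interval (0.171% to 0.777%) in all 11 settings that changed the selection. The percentage of genes at least 1.5-fold higher was 41.2 with at most 5% mitochondrial UMIs, 44.8 with the UMI limit, 34.7 as a mean over cells, 11.5 without each gene's top cell and 8.56 at a floor of 200 CPM. That of lower genes was 27.0 with the UMI limit, 27.4 as a mean over cells, 30.6 without the top cell and 9.69 at the higher floor. Directions turned as follows, as log2 ratios, with a library at 0 UMIs set to 3 counts. With at most 5% mitochondrial UMIs the median of immediate early genes was -0.10, Kctd12 -0.22, Jun -0.66, Gpr34 -1.14, Rgs2 -0.67, Sostdc1 0.10 and Krt18 0.86. With the UMI limit the same were -0.37, -1.51, -0.65, -2.59, -2.56, 0.74 and 0.73, with Arglu1 at -0.56 and Zbtb20 at 0.19. As a mean over cells Kctd12 was -0.29, Gpr34 -0.37, Rgs2 -0.44, Arglu1 -0.23, Sostdc1 0.024 and Krt18 0.11. Without the largest barcode of each library immediate early genes were at -0.76, Kctd12 -0.53, Jun -1.05, Gpr34 -1.33 and Rgs2 -2.34, and without each gene's top cell -0.23, -0.53, -0.23, -1.33 and -2.34. S100a9 was 0.62 at 1000 genes and 1.65 with at most 0.5% microglia marker UMIs, where Rgs2 was -1.32. Without a mitochondrial limit Zbtb20 was 0.33 and Ctsh 0.0060. The settings show which cells carry a value, and beyond that the cause was not tested. Cox8b, Ccnd2, Gas5, Psmb4 and Lcn2 were lower, and App, Nfia and Cetn3 higher, with APOE130-149 under every setting run over all selected barcodes.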
